A study of Mus musculus with 37 samples.

Results

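Adiponectin (Adipoq), resistin (Retn), retinol binding protein 4 (Rbp4) and complement factor D (Cfd, adipsin) are proteins that fat cells secrete, and their transcripts were followed in the mouse mammary gland across 4 diet and wheel groups. The members were chosen by gene symbol: every probe set of the array that the platform annotation assigns to 1 of these 4 genes. This gave 3 probe sets of 22690, 1 each for Adipoq (1422651_at), Retn (1449182_at) and Rbp4 (1426225_at). No probe set carried the symbol Cfd in the annotation used here, so Cfd was not analysed here. All animals were female C57BL/6 mice, 9 weeks old when they were randomised and followed for 6 weeks, and the labels give no genetic alteration. Mice ate ad libitum without a wheel (AL, n = 10) or with a running wheel (AL+EX, n = 9), or were under 30% calorie restriction without a wheel (CR, n = 9) or with one (CR+EX, n = 9). Restricted mice received 70% of the calories of AL mice and the full amount of all other nutrients. Each of the 37 arrays holds RNA of the left and right thoracic glands, pooled, so that fat, epithelium, vessels, muscle and any lymph node in the tissue contribute to each value.

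Adipokines are hormones by which adipose tissue reports on its energy stores. Adiponectin assembles into multimers in the endoplasmic reticulum of the fat cell and acts through the receptors Adipor1 and Adipor2 and the cadherin Cdh13 to raise insulin sensitivity. Resistin, a cysteine-rich protein that mice make mostly in white fat cells, opposes insulin action, and Rbp4 carries retinol through the blood, bound to transthyretin (Ttr). The mammary epithelium of a virgin mouse lies in a fat pad, so fat cell transcripts are abundant in whole gland RNA.

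The RefSeq promoters of the 3 genes (GRCm38.p6, from 250 bases before to 50 bases after the annotated start) are shown for description only. Whether their motifs bear on any value below was not tested. Capitals mark matches, on either strand, to 5 motifs: the TATA box TATAAA, the CCAAT box CCAAT, the C/EBP site TTNNGCAA, the nuclear receptor half-site AGGTCA and the E-box CACGTG. Rbp4 has 2 annotated starts.
Adipoq, chr16:23146286-23146585, plus strand: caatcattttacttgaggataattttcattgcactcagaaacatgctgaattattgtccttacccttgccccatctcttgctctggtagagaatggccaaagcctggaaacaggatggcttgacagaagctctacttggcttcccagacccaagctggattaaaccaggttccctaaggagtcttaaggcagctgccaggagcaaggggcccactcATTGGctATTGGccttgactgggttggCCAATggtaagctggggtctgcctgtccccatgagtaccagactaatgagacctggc
Retn, chr8:3655520-3655819, plus strand: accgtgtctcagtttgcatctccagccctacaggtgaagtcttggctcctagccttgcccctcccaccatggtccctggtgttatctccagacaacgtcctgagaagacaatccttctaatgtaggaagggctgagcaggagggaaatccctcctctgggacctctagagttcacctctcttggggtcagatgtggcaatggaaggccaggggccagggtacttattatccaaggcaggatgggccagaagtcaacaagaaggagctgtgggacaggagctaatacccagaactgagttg
Rbp4, first start, chr19:38125272-38125571, minus strand: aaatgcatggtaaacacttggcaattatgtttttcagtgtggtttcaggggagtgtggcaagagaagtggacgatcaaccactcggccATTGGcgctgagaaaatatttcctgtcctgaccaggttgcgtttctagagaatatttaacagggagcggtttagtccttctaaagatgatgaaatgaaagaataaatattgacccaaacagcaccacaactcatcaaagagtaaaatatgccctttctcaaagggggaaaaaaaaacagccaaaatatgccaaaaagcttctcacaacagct
Rbp4, second start, chr19:38124762-38125061, minus strand: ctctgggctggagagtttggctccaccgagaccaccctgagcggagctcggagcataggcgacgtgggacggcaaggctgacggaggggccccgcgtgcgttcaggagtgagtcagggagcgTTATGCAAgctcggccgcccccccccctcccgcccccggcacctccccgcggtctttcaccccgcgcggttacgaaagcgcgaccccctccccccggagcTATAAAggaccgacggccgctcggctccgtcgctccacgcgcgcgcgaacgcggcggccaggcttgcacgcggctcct
The Adipoq window held 3 CCAAT matches, the first base of each at positions -34, -27 and -7 from the start. The first Rbp4 window held 1 CCAAT match. The second held 1 TATA match at position -28 and 1 C/EBP match at position -128. None of the 5 motifs was found in the Retn window, which says only that these letters are not in it. Of 32851 mouse promoter windows of the same length, 37.4% held CCAAT, 16.3% AGGTCA, 13.6% TATAAA, 10.8% TTNNGCAA and 7.15% CACGTG.

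Some features of the arrays bear on the values below. The authors' scaling left the trimmed mean signal between 500.165 and 500.23 on every array. The mean of 10 B lymphocyte genes, markers of the lymph node, was 6.66 to 7.28 on the log2 scale in 22 arrays and 8.22 to 10.5 in the other 15. The latter, called lymphocyte-rich below, comprised 4 glands of AL, 4 of AL+EX, 4 of CR and 3 of CR+EX. The numbers in the sample titles were cut here into 4 runs of equal width on the number scale. These hold 8, 11, 10 and 8 arrays in rising order of the numbers. The cut is a choice made here and is not given by the labels. The step in the numbers from run 2 to run 3 is no wider than steps within runs. Each run holds all 4 groups, but the labels do not say what a run is. All 8 arrays of run 4 were lymphocyte-rich. In 5 arrays (3 AL and 2 CR+EX, 4 of them in run 1) the ratio of the 3' to the 5' Gapdh control probe set, a sign of RNA degradation or short labelling products, exceeded 2. The tissue label was borne out by luminal keratins (Krt8, mean 10.9 to 11.7 by group on the log2 scale). The fat cell gene Fabp4 was at 14.5 to 14.6. The basal keratins Krt5 (7.8 to 8.3) and Krt14 (7.9 to 8.4) were dimmer. Skeletal muscle genes (list mean 13.4 to 15.3 by array) and the brown fat gene Ucp1 (13.0 to 13.4 by group) were also bright, but they are not markers of the gland.

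Retn and Rbp4 transcripts were higher in restricted than in unrestricted glands, but neither call held at every setting given below. Neither gene passed between any pair of groups in the main fit of all 4 group means. Some alternative fits given below did pass for a pair. Averaged over both wheel states, Retn was 1.55-fold and Rbp4 1.41-fold higher in the 18 restricted than in the 19 unrestricted glands, whereas Adipoq stood at 1.10-fold and did not pass the test. In whole gland RNA, fewer cells of a type and less RNA per cell cannot be told apart. This contrast asks what restriction does regardless of the wheel. Of the 3 measured members 2 were called higher and none lower, at an adjusted p under 0.05 over all 9295 genes tested. Of all genes tested, 4.19% were called higher and 4.56% lower in this contrast (8.75% in all).

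For Retn, the AL glands had signals from 2626.8 through a median of 10774 to 22258.9. The AL+EX glands ran from 3886.8 through 9172.5 to 12393.2. The restricted groups lay higher, with CR from 5659.5 through 15347 to 21349.8 and CR+EX from 10174.2 through 15773 to 21900.5. Of the restricted glands 15 of 18 exceeded the unrestricted median, but none exceeded the highest unrestricted gland, AL replicate 6, so the groups overlapped. The averaged log2 difference was 0.64 ± 0.19 (SE, 95% confidence interval 0.25 to 1.03, limma adjusted p = 0.033), and a permutation of diet within wheel state gave p = 0.0027. The call was lost without the 15 lymphocyte-rich arrays (0.45 ± 0.14, adjusted p = 0.054), after quantile normalization (0.56, adjusted p = 0.067), and without any 1 of CR replicate 6, CR replicate 7, CR+EX replicate 6 or CR+EX replicate 7, all of run 3 (0.60 to 0.61, adjusted p = 0.052 to 0.054).

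For Rbp4, signals in AL glands ran from 1558.1 through a median of 5217.3 to 7952.1. In AL+EX glands they ran from 2636.6 through 3191.3 to 6133.4, the lowest median of the 4 groups. CR glands ran from 2951.2 through 6029.8 to 7546.9, and CR+EX glands from 3529.1 through 5975.6 to 8033.6. Here too 15 of 18 restricted glands lay above the unrestricted median, 1 lay above every unrestricted gland, and the groups overlapped. The averaged log2 difference was 0.49 ± 0.16 (SE, 95% confidence interval 0.17 to 0.81, limma adjusted p = 0.042, permutation p = 0.0050). This call was the less firm of the pair. It was lost in 21 of 37 fits that left out 1 array, at 0.41 to 0.50 with adjusted p of 0.051 to 0.072: AL replicates 3, 8, 9 and 10, AL+EX replicates 1, 2, 6, 7, 8 and 9, CR replicates 4, 5, 6, 7, 8 and 9, and CR+EX replicates 2, 3, 4, 6 and 7. Without the 15 lymphocyte-rich arrays the difference was 0.26 ± 0.12 (adjusted p = 0.23), and without run 4 it was 0.36 ± 0.14 (adjusted p = 0.098, with Retn at 0.50 ± 0.14 and adjusted p = 0.025).

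For Adipoq, the spread was narrower. Its signals are among the bright ones of each array. They stood at 15580.5 in AL replicate 1, where the highest signal was 20689.5, and at 22189.8 in AL+EX replicate 9, where it was 84278.5. Whether a limit at the bright end bears on the spread, the run share or the diet differences of Adipoq was not tested. Signals ran from 13959.2 through a median of 17769 to 30960.3 in AL, from 12686.5 through 15464 to 22189.8 in AL+EX, from 12916.1 through 18962 to 25072.3 in CR and from 14323.2 through 17838 to 26746.3 in CR+EX. Of the restricted glands 10 of 18 exceeded the unrestricted median. The averaged log2 difference was 0.14 ± 0.11 (95% confidence interval -0.08 to 0.35, limma adjusted p = 0.46, permutation p = 0.21), so a rise of up to 0.35 on the log2 scale is compatible with these arrays.

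**Figure D1:**
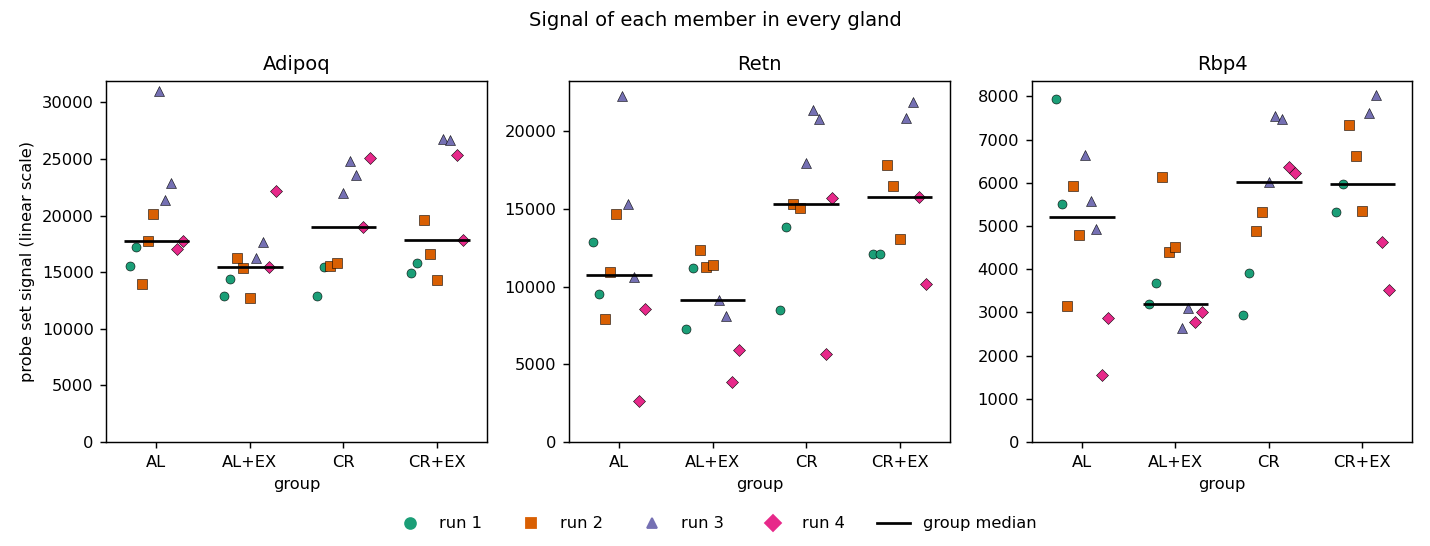
Probe set signal (linear scale) of Adipoq, Retn and Rbp4 in each of the 37 glands by group, with the group median as a line and the run of title numbers as colour and shape. Retn and Rbp4 medians are higher in CR and CR+EX than in AL and AL+EX, the groups overlap, and the lowest AL glands of Retn (2626.8) and Rbp4 (1558.1) are the same animal of run 4.

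The restriction differences of the members were compared within each array, since they are measured in the same RNA. The rise of Retn exceeded that of Adipoq by 0.50 ± 0.19 on the log2 scale (95% confidence interval 0.12 to 0.88, permutation p = 0.0072), and that of Rbp4 exceeded it by 0.35 ± 0.16 (0.03 to 0.68, permutation p = 0.031). Retn and Rbp4 differed from each other by 0.14 ± 0.14 (-0.13 to 0.42, permutation p = 0.30), an interval that still allows a difference in either direction. These were 3 comparisons (Benjamini-Hochberg adjusted p = 0.022, 0.046 and 0.30), added after the data were seen. In the 22 lymphocyte-poor arrays the same differences were 0.33 for Retn over Adipoq and 0.15 for Rbp4 over Adipoq. By run, Retn over Adipoq was positive in all 4 (0.22, 0.43, 0.55 and 0.93 in runs 1 to 4), and Rbp4 over Adipoq was negative in run 1 (-0.10) and positive in the others (0.25, 0.58 and 0.76).

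The contrast of restriction among mice with a wheel held the larger differences. CR+EX exceeded AL+EX by 0.83 ± 0.28 in Retn (1.78-fold, limma adjusted p = 0.11) and by 0.71 ± 0.23 in Rbp4 (1.63-fold, adjusted p = 0.096). All 9 CR+EX glands lay above the AL+EX median in both genes, and 7 of 9 did in Adipoq. How many of all genes give such counts was not determined, so counts above a median carry no result of their own, here or elsewhere. Neither the Retn nor the Rbp4 difference passed over all genes, of which 1.65% passed here, 0.85% upwards and 0.796% downwards. Exact permutation gave p = 0.0010 for Retn and p = 0.0025 for Rbp4, out of 18 such tests of 3 genes in 6 pairs of groups. With the run of title numbers as a block both passed (adjusted p = 0.012 for Retn and 0.027 for Rbp4). In a fit of these 2 groups only, Rbp4 passed narrowly (adjusted p = 0.0497) and Retn did not (adjusted p = 0.052). Without AL replicate 9 both passed narrowly (adjusted p = 0.049 for Retn and 0.044 for Rbp4), as did Rbp4 without AL+EX replicate 3 (adjusted p = 0.049). With the run block and the mean of the fat cell markers together the differences were 0.50 ± 0.21 in Retn (adjusted p = 0.41) and 0.32 ± 0.19 in Rbp4 (adjusted p = 0.65). Adipoq differed by 0.29 ± 0.15 (adjusted p = 0.37, exact permutation p = 0.066).

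Among mice without a wheel, CR exceeded AL by 0.44 ± 0.27 in Retn (adjusted p = 0.46) and by 0.28 ± 0.22 in Rbp4 (adjusted p = 0.59), with 7 and 6 of 9 CR glands above the AL median. Adipoq was at -0.01 ± 0.15 (adjusted p = 0.98). None of the 3 passed, beside 0.441% of all genes called. Without AL replicate 9 Retn was at 0.22 and Rbp4 at 0.11. Without the lymphocyte-rich arrays Retn was at 0.27 and Rbp4 changed sign (-0.15, adjusted p = 0.73), and with the high Gapdh ratio arrays also left out Retn was at 0.11.

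The difference between these restriction effects was itself tested as the interaction of diet and wheel. It was 0.40 ± 0.39 for Retn (95% confidence interval -0.39 to 1.18), 0.43 ± 0.31 for Rbp4 (-0.21 to 1.07) and 0.30 ± 0.21 for Adipoq (-0.13 to 0.73), each with a limma adjusted p of 1.00. Without the lymphocyte-rich arrays the Rbp4 interaction was 0.81 ± 0.25 (adjusted p = 0.70), and without run 4 it was 0.83 ± 0.28 (adjusted p = 0.68). Without the lymphocyte-rich and high Gapdh ratio arrays the values were 0.68 ± 0.28 for Adipoq, 0.61 ± 0.27 for Retn and 0.77 ± 0.26 for Rbp4 (adjusted p = 0.58 to 0.61). A difference between the restriction effects with and without a wheel was therefore not shown at any of these settings. No gene was called in the interaction (0% of all genes, 295 at an unadjusted p under 0.05).

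The wheel itself gave no call in any member. Averaged over both diets the wheel differences were -0.08 ± 0.19 for Retn (95% confidence interval -0.47 to 0.31), -0.10 ± 0.16 for Rbp4 (-0.42 to 0.22) and -0.12 ± 0.11 for Adipoq (-0.34 to 0.09), each with a limma adjusted p of 1.00. No gene at all was called (0%), with 266 at an unadjusted p under 0.05. In mice fed ad libitum all 3 genes were on the lower side with a wheel: Adipoq by -0.28 ± 0.15 (exact permutation p = 0.050), Retn by -0.28 ± 0.27 (exact p = 0.41) and Rbp4 by -0.32 ± 0.22 (exact p = 0.24). Adjusted over the 18 permutation tests of pairs, the Adipoq value was p = 0.17. Of 9 AL+EX glands 1 exceeded the AL median in Adipoq, 1 in Rbp4 and 4 in Retn. Fat cell markers lay lower with the wheel too, with 1 of 11 positive in the averaged wheel effect (median -0.14) and none called. With their mean as a covariate these ad libitum differences were -0.09 for Adipoq, -0.14 for Retn and -0.20 for Rbp4. Without the lymphocyte-rich arrays and those with a high Gapdh ratio, Adipoq was at -0.54 ± 0.21 and Retn at -0.51 ± 0.19 (both adjusted p = 0.53). Under restriction the wheel differences were 0.03 ± 0.15 for Adipoq, 0.12 ± 0.28 for Retn and 0.11 ± 0.23 for Rbp4. In both of these pairs of groups 0% of genes were called, with 600 (ad libitum) and 83 (restricted) at an unadjusted p under 0.05.

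**Figure D2:**
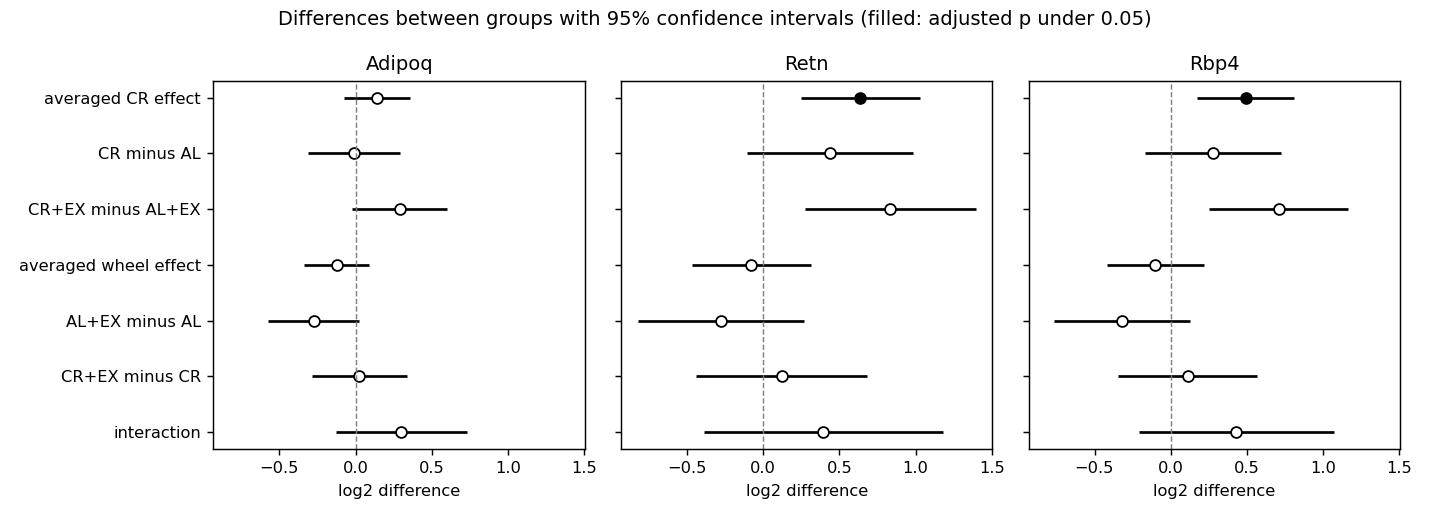
Log2 difference (points) with its 95% confidence interval (lines) for Adipoq, Retn and Rbp4 in 7 contrasts of the limma fit, filled where the adjusted p is under 0.05. The filled points are the averaged restriction effects of Retn (0.64) and Rbp4 (0.49), and every interval of a wheel effect and of the interaction includes 0.

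Ordered by mean log2 signal, Retn ran from AL+EX (13.05 ± 0.55, SD, n = 9) through AL (13.32 ± 0.82, n = 10) and CR (13.76 ± 0.62, n = 9) to CR+EX (13.88 ± 0.38, n = 9). Rbp4 had the same order, with AL+EX at 11.82 ± 0.40, AL at 12.13 ± 0.69, CR at 12.41 ± 0.44 and CR+EX at 12.52 ± 0.38. In Adipoq the order was AL+EX (13.94 ± 0.24), CR (14.20 ± 0.35), AL (14.21 ± 0.32) and CR+EX (14.23 ± 0.36). No neighbours in these orders passed the test. CR+EX against AL did not pass either, for Retn (0.56 ± 0.27, adjusted p = 0.36, with 0.624% of genes called) or Rbp4 (0.39 ± 0.22, adjusted p = 0.45). Against AL+EX the CR glands were at 0.71 ± 0.28 in Retn (adjusted p = 0.18, with 1.97% of genes called, 0.968% higher and 1% lower) and 0.59 ± 0.23 in Rbp4 (adjusted p = 0.17). With the run as a block that Retn difference passed (0.69, adjusted p = 0.035), and with the fat cell marker mean added it was 0.32 (adjusted p = 0.74).

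Much of the spread within groups went with the run of title numbers. The run accounted for a share of 0.624 of the within-group variance of Adipoq, 0.485 of that of Retn and 0.269 of that of Rbp4. The share over all genes was not computed, so these values are not shown to be particular to the members. Adipoq was highest in run 3 (median signal 23210) and lower in runs 1, 2 and 4 (15193, 15776 and 18400). Retn, in contrast, had its lowest median in run 4 (7267.4, against 11628, 13043 and 19377 in runs 1 to 3), and so had Rbp4 (3264.3, against 4624.5, 5330.8 and 6335.8).

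Within runs, the Retn difference between restricted and unrestricted glands was positive in all 4, at 0.19, 0.46, 0.84 and 1.19 in runs 1 to 4. For Rbp4 it was -0.12, 0.28, 0.87 and 1.02, so run 1 went the other way. In run 4 Rbp4 signals were 3529.1 to 6360.9 in 4 restricted and 1558.1 to 2999.5 in 4 unrestricted glands. Those of Retn were 5659.5 to 15773.3 and 2626.8 to 8580.9. How many of all genes separate by diet in run 4 was not counted, so these ranges carry no result of their own. Adipoq was at -0.02, 0.03, 0.29 and 0.26. A test of diet by run, added after the data were seen, passed for none of the members (limma adjusted p = 0.42 for Retn, 0.23 for Rbp4 and 0.77 for Adipoq), beside 1.07% of all genes called. With the run as a block the averaged effects were 0.65 ± 0.14 for Retn (adjusted p = 0.00196), 0.50 ± 0.14 for Rbp4 (adjusted p = 0.011) and 0.13 ± 0.07 for Adipoq (adjusted p = 0.21).

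**Figure D3:**
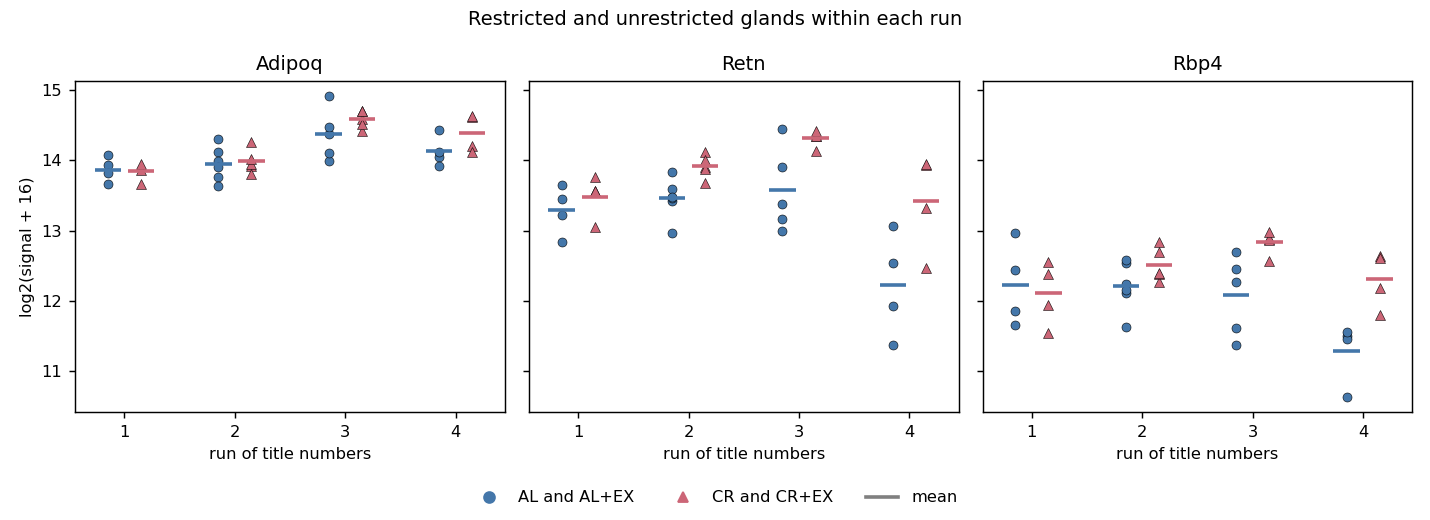
Log2(signal + 16) of each member in restricted (triangles) and unrestricted (circles) glands within each run of title numbers, with means as lines. The Retn difference is positive in all 4 runs (0.19 to 1.19), the Rbp4 difference is negative in run 1 (-0.12), and run 4 holds the lowest unrestricted signals of both genes.

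Fat cell markers were set beside these values. Of 11 tested adipocyte genes (none a member), 2 were called higher under restriction and none lower, beside 4.19% and 4.56% of all genes. The median was 0.21 against -0.02 over all genes. The 2 called genes were Gpd1, which makes the glycerol backbone of triglyceride (0.49 ± 0.15), and Dgat2, which completes triglyceride synthesis (0.41 ± 0.11). The array mean of the list ran from 12.4 to 13.3 in unrestricted and from 12.3 to 13.4 in restricted glands. With that mean as a covariate the restriction difference fell to -0.02 ± 0.07 in Adipoq, to 0.52 ± 0.20 in Retn (adjusted p = 0.097) and to 0.39 ± 0.16 in Rbp4 (adjusted p = 0.13), so the sign of Adipoq turned and both calls were lost. Some of these marker genes are themselves metabolic genes, and the covariate also removes any response that they share with the members.

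Markers of other cell types also moved with diet or with the members. The counts of called genes below stand beside 4.19% of all genes called higher and 4.56% called lower under restriction. Of 12 luminal epithelial genes, 11 had a negative difference under restriction and 2, Cd24a (-0.71 ± 0.15) and Wfdc2 (-0.67 ± 0.21), were called lower; the list mean was 8.41 to 11.1 in unrestricted and 8.21 to 10.6 in restricted glands. The 3 glands with the lowest Retn signals (AL replicate 9, AL+EX replicate 8 and CR replicate 8, all of run 4) were also the 3 lowest in the luminal mean, at 8.41, 8.47 and 8.21, against 9.30 or more in the others. With the run as a block and that mean as a covariate Retn was at 0.89 ± 0.12 and Rbp4 at 0.58 ± 0.15. This fit was chosen after the data were seen, and the luminal mean was not fitted without the run block. None of 10 B lymphocyte genes was called, at a median of -0.41 and with list means of 6.97 to 10.5 and 6.66 to 9.97. Retn signals in the 15 lymphocyte-rich arrays ran from 2626.8 through a median of 8580.9 to 20810.1, against 8113.7 through 14257 to 22258.9 in the other 22, and Rbp4 had medians of 3191.3 and 5758. With the B lymphocyte mean as a covariate both calls were kept (Retn 0.50 ± 0.14, adjusted p = 0.016, and Rbp4 0.39 ± 0.12, adjusted p = 0.033). Some other cell type lists had mostly positive differences under restriction. Of 9 macrophage genes 8 had a positive difference (median 0.21), and 1, the scavenger receptor gene Cd163 (0.63 ± 0.19, adjusted p = 0.029), was called higher. All 7 fibroblast genes had a positive difference (median 0.22), as had 6 of 7 basal epithelial genes (median 0.20), with none called in either list. Brown fat genes, among them Ucp1, had 0 of 6 called, and skeletal muscle genes 0 of 10. What part differing cell numbers had in the Retn and Rbp4 differences was not tested beyond these covariates and left-out arrays.

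Among glands of the same group the members varied together. With group means removed, Retn and Rbp4 correlated across the 37 arrays at r = 0.74 (permutation p = 2e-05, Spearman's rho = 0.77, permutation p = 1e-05, the smallest the draws can give). Without the 2 arrays farthest out in Retn r was 0.76, and it was 0.61 within the 22 lymphocyte-poor arrays and 0.63 within the 15 rich ones. Adipoq was less close to Retn (r = 0.41, permutation p = 0.016, rho = 0.47, permutation p = 0.00548, 0.40 without the 2 farthest) and to Rbp4 (r = 0.38, permutation p = 0.030, rho = 0.38, permutation p = 0.025, 0.38 without the 2 farthest). In the lymphocyte-poor arrays Adipoq and Retn reached r = 0.77, against 0.37 in the rich ones. With run means removed as well, the 3 pairs lay between 0.63 and 0.70. These were 6 relations, with the 3 below, and the adjusted values of the 3 pairs were 6e-05, 0.032 and 0.045 for Pearson's r and 3e-05, 0.0081 and 0.025 for rho. The draws permuted arrays within groups but not within runs, so the p-values of all 6 relations include shifts shared by a run. No p-value was computed with run means removed.

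Over all 37 arrays the adipocyte mean correlated with Adipoq at r = 0.79 (permutation p = 1e-05, rho = 0.82, permutation p = 1e-05, 0.78 without the 2 farthest). For Retn it was 0.29 (permutation p = 0.079, rho = 0.49, permutation p = 0.00301, 0.21 without the 2 farthest). For Rbp4 it was 0.32 (permutation p = 0.054, rho = 0.45, permutation p = 0.00679, 0.23 without the 2 farthest). With run means removed as well the 3 values were 0.63 for Adipoq, 0.47 for Retn and 0.57 for Rbp4. The adjusted values for Pearson's r were 6e-05, 0.079 and 0.065, and those for rho 3e-05, 0.0060 and 0.0081. For Retn the relation differed between the sets of arrays, at r = 0.83 within the 22 lymphocyte-poor arrays and 0.05 within the 15 rich ones. In run 4 alone it was -0.07, against 0.69 to 0.86 in runs 1 to 3. Adipoq did not have the highest r throughout: Retn had it in run 1 (0.69 against 0.62 for Adipoq), in run 3 (0.86 against 0.68) and in the lymphocyte-poor arrays (0.83 against 0.80), and Rbp4 had it in run 2 (0.91 against 0.87). For Rbp4 the values were 0.55 within the lymphocyte-poor arrays and 0.31 within the rich ones.

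**Figure D4:**
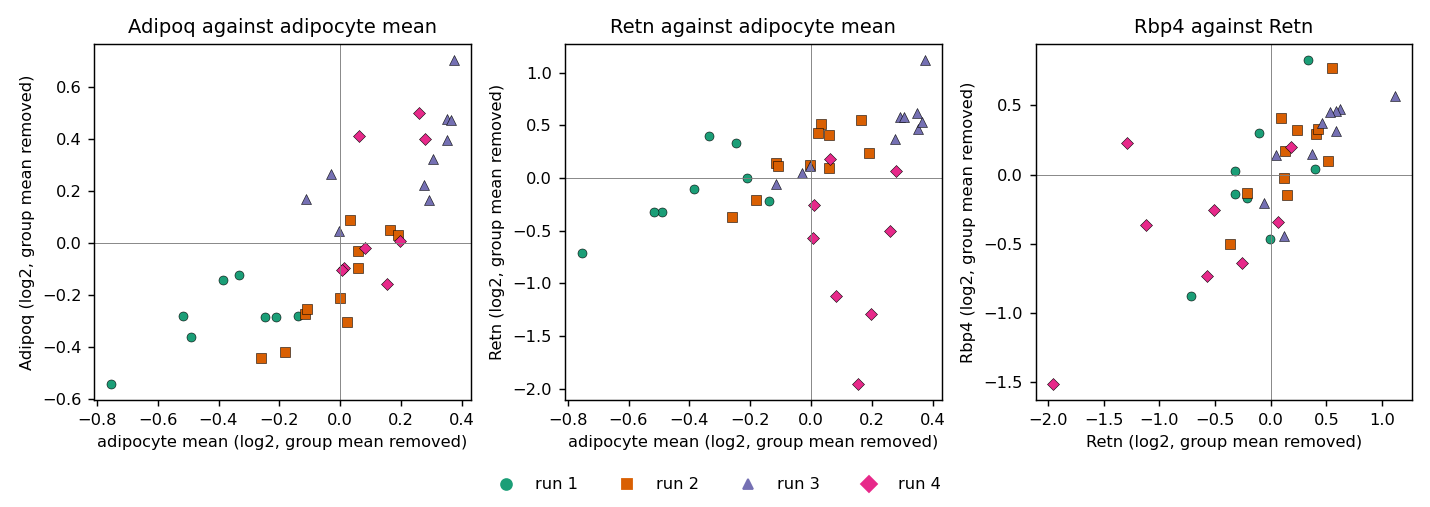
Each point is 1 of 37 glands, as the log2 deviation from its group mean, coloured by run: Adipoq against the mean of 11 adipocyte genes (r = 0.79), Retn against the same mean (r = 0.29) and Rbp4 against Retn (r = 0.74). Most glands of run 4 (diamonds) fall below the others in Retn at like adipocyte means.

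The genes most like each member were taken by Pearson's r of the same group-centred values across 37 arrays. For Adipoq they were Thrsp (0.89), Ctsb (0.85), Lpl (0.84), Pck1 (0.84) and Fasn (0.82), and none of these 5 was called under restriction. Within the 22 lymphocyte-poor arrays r was 0.87 to 0.94. For Retn they were Chst1 (0.88), Slc1a5 (0.88), Ctdspl (0.88), Cavin2 (0.86) and Opn3 (0.85), also uncalled, with r of 0.53 to 0.84 in the lymphocyte-poor arrays. For Rbp4 they were Fads3 (0.87), Mmd (0.87), Sucnr1 (0.83), Ccdc80 (0.83) and Cd1d1 (0.82), with r of 0.57 to 0.82 in the lymphocyte-poor arrays. The closest of these to a call was Mmd (0.35 ± 0.12, adjusted p = 0.056). Rbp4 ranked 61st among the genes like Retn, and Retn ranked 46th among those like Rbp4.

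The receptors and carriers of these hormones had 0 of 6 tested genes called under restriction, with a median of 0.02 against -0.02 over all genes. Adipor1 was at 0.07 ± 0.08 and Adipor2 at 0.21 ± 0.08 (adjusted p = 0.65 and 0.11), and Cdh13 was at 0.05 ± 0.11 (adjusted p = 0.85). The carrier gene Ttr and the Rbp4 receptor gene Stra6 fell under the filter on low signals. Genes that fold and modify adiponectin in the endoplasmic reticulum had 0 of 6 called, with a median of 0.12. The alternative complement pathway, in which factor D cleaves factor B, had 0 of 10 called, with a median of 0.06. Its Cfb was at 0.34 ± 0.25 (adjusted p = 0.44), and C3 was not analysed here.

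Of 11 tested retinoid genes, 3 were called higher and none lower under restriction, beside 4.19% and 4.56% of all genes tested. The differences were positive in 4 of the 11, with a median of -0.03 against -0.02 over all genes. The 3 were Rbp7, an intracellular retinoid binding protein gene (0.64 ± 0.16, adjusted p = 0.012), Adh1, an alcohol dehydrogenase that oxidises retinol (0.50 ± 0.11, adjusted p = 0.0038), and Retsat, the retinol saturase (0.42 ± 0.09, adjusted p = 0.0044). The receptor genes Rarb, Rarg and Rxra lay between -0.04 and -0.02.

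Other secreted factors of adipose tissue had 5 of 20 tested genes called higher and 3 lower, beside 4.19% and 4.56% of all genes. Their median was 0.16, against -0.02 over all genes. The 3 largest rises among called genes were those of Nrg4, a growth factor that acts on the liver (0.77 ± 0.12, adjusted p = 8.0e-05), Igf1 (0.51 ± 0.14, adjusted p = 0.018) and C1qtnf12, a relative of adiponectin (0.43 ± 0.13, adjusted p = 0.038). The falls were those of the leptin gene Lep (-1.39 ± 0.38, adjusted p = 0.018), Nucb2, which encodes the nesfatin precursor (-0.64 ± 0.21, adjusted p = 0.044), and the haptoglobin gene Hp (-0.50 ± 0.14, adjusted p = 0.017). Retn and Rbp4 thus stood on the opposite side of 0 from Lep in the same glands.

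Transcription factors of the fat cell had 1 of 12 called higher, Cebpb (0.37 ± 0.11, adjusted p = 0.033), and 1 lower, Stat5b (-0.38 ± 0.07, adjusted p = 0.00067). Of all genes 4.19% were called higher and 4.56% lower. The median of the list was -0.07. Pparg, the master regulator of fat cell differentiation, was at 0.21 ± 0.15 (adjusted p = 0.41), and Cebpa, its partner, at 0.35 ± 0.13 (adjusted p = 0.083). The lipid binding protein gene Fabp4 was at -0.08 ± 0.15 (adjusted p = 0.79). Under the wheel, none of these pathway lists had a called gene, at medians of -0.09 to 0.04.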

How the data were processed

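Each value is an Affymetrix signal intensity per probe set on a linear scale, as deposited by the authors. GCOS 1 is listed among the tools of the submitters' processing notes. The summary method behind the signal is not given in the sources used here. Because deposited arrays were already scaled, signals were used as log2(signal + 16) with no further scaling. Of 22690 probe sets, 20380 named 1 gene, 691 several and 1555 none, and 64 were controls. The brightest probe set stood for each of 12393 genes, and 9295 genes were tested after the dimmest 25% had been removed (mean signal under about 88.7, or 6.71 in log2). Group means of all 37 arrays were fitted with limma 3.58.1 in R 4.3.3 (33 residual degrees of freedom, variance trend), with 9 contrasts and two-sided p-values adjusted by Benjamini and Hochberg over all genes tested. Errors after ± are standard errors unless SD is written, and the number of arrays limits the precision. Permutation tests were two-sided: exact for pairs of groups, 100000 draws otherwise. The fits were checked on simulated data.

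The members, lists and tests were chosen with earlier results of these data known. Genes were named by a rule: the members, fixed partners, up to 3 called genes per list and direction, and the 5 genes most like each member. Plin1, Adrb3 and Appl2 were not analysed here. Alternatives covered pseudocounts, scaling, filters, probe set choice, variance models, array weights, the run, covariates and left-out arrays.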

Additional observations from a re-analysis of the deposited data

Results flagged for a closer look

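The Retn signal of AL replicate 9, 2626.8, stood apart from the other AL glands on the log2 scale, where its gap to the next gland was a share of 0.517 of the group's range, above Dixon's 95% critical value. On the linear signal the share was 0.271, below that value. It was the 1 such value in 12 sets tested (3 genes in 4 groups), and chance flags about 1 group in 20. That gland belongs to run 4, is lymphocyte-rich and also had the lowest Rbp4 signal, 1558.1, and a luminal mean of 8.41, among the 3 lowest. Their part in the value was not tested. Without it the averaged restriction difference was 0.53 in Retn and 0.41 in Rbp4, where the call was lost (adjusted p = 0.051).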

How the results depend on the processing

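No paired analysis was possible because the groups share no replicate numbers in the sample titles. Of the averaged restriction effects, Retn kept its call in 16 of 21 alternatives other than left-out arrays and Rbp4 in 13 of 21, and Adipoq was called in 0. Several of the 21 could hardly change the outcome. Each member has 1 probe set, so the probe set choices return the same estimates (0.64 for Retn and 0.49 for Rbp4), as do the variance models. Calls were lost with quantile normalization (Retn 0.56, Rbp4 0.40), no filter (Rbp4 0.49), array weights (Rbp4 0.40), no lymphocyte-rich arrays (0.45, 0.26) and the adipocyte covariate (0.52, 0.39). Alternatives chosen after seeing the data also lost them: neither lymphocyte-rich nor high-Gapdh-ratio arrays (0.41, 0.31), no run 4 (Rbp4 0.36), and run block with adipocyte mean (0.42, 0.24). Leaving out 1 array gave 0.53 to 0.72 for Retn and 0.41 to 0.55 for Rbp4.

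Signs turned as follows. With the adipocyte covariate Adipoq became -0.022 under restriction, -0.031 in CR+EX minus AL and -0.013 in CR minus AL+EX, and the Retn wheel effect 0.0042. With the run block as well, Adipoq was -0.0075, -0.0069 and -0.0082 in these, Retn 0.0099 in AL+EX minus AL, and the wheel effects 0.00066 (Adipoq), 0.094 (Retn) and 0.069 (Rbp4). Retn's was 0.048 with run block and luminal mean. Without lymphocyte-rich arrays Rbp4 in CR minus AL was -0.15 and Adipoq in CR+EX minus AL -0.047. Without both kinds of array they were -0.074 and -0.13. Median centring put Adipoq in CR minus AL at 0.022. With 1 array left out Adipoq ran from -0.063 to 0.066 in CR minus AL, from -0.046 to 0.092 in CR+EX minus AL and from -0.042 to 0.079 in CR+EX minus CR, where Retn ran from -0.041 to 0.20. The causes were not tested.

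Counts of called genes in CR minus AL (41) were 14 with median centring, 24 with quantile normalization, 19 with no filter and 573 with the run block. The block gave 1743 for the averaged effect (813), 558 for CR+EX minus AL+EX (153), 347 for CR+EX minus AL (58) and 753 for CR minus AL+EX (183). Median centring gave 35 and 90 for the last pair. The averaged effect had 389 higher and 424 lower, 491 and 180 with median centring, and 425 and 313 with quantile normalization.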
